A study of Mus musculus with 24 samples.

Results

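The genes studied here, 10 members of the BCL2 family that sets whether a cell's mitochondria release the signal for apoptosis, were followed across both brain hemispheres of mice with an experimental stroke and of sham-operated mice. The genes were taken by name: for each of Bcl2, Bcl2l1, Mcl1, Bax, Bak1, Bbc3, Pmaip1, Bcl2l11, Hrk and Bid, the probe set with that gene symbol and the highest mean signal was used. Of these 10 genes, 9 were measured, each by 1 probe set, out of 22206 tested probe sets covering 19505 gene symbols. Bax was not analysed here. None of the 9 measured genes passed the test in any of 5 comparisons. Few probe sets did: 0.135% of all between the hemispheres of stroke mice, and 0.149% between the operated-side hemispheres of stroke and sham mice. In the other comparisons 0% passed, so the count of 0 does not set these genes apart from the rest. Among the 9 genes, the values closest to a difference were those of Bcl2 between the hemispheres and of Mcl1 between occluded and sham mice.

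The mice were male C57Bl/6j animals of 8 to 10 weeks with no genetic change named in the labels. For middle cerebral artery occlusion (MCAO), 8 mice had this artery blocked for 90 min by the intraluminal method and were killed 30 min after its end, 2 h after onset. In 4 mice the surgery was a sham operation without occlusion. The sample labels used here hold no time for the sham mice, so a match with the 2 h of the MCAO mice cannot be stated. All 12 mice were perfused with cold saline, and RNA of the hemisphere on the operated side (ipsilateral, IP) and of the opposite one (contralateral, CL) went onto 24 Affymetrix arrays, so that each hemisphere has 1 array. A whole hemisphere holds tissue inside and outside the territory of the occluded artery. The question the design puts to this gene family is whether its transcripts differed after MCAO within this early window.

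BCL2, BCL-xL (the product of Bcl2l1) and MCL1 hold apoptosis back by binding the family members that promote it. BAX and BAK are the effectors that open pores in the outer mitochondrial membrane, through which cytochrome c leaves to start the caspase cascade. The BH3-only proteins PUMA (Bbc3), NOXA (Pmaip1), BIM (Bcl2l11), HRK and BID switch this step on by binding the protective members, the effectors or both. Several BH3-only genes are known to be induced by transcription in stressed neurons, while BID is activated mainly by cleavage and MCL1 is a short-lived protein controlled by ubiquitin ligases.

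Both arrays of 1 MCAO mouse (number 3) and of 1 sham mouse (number 1) stood apart and were left out of the main fits. Their median correlation with the other arrays was 0.33 to 0.55, against 0.98 to 0.99 for the other 20 arrays, and 0 of the 9 genes was above background on any of these 4 arrays. The main results therefore rest on 7 MCAO and 3 sham mice, and values from all 24 arrays stand beside those of the 4 genes that were above background on any array, Bcl2, Bcl2l1, Mcl1 and Bak1. A signal counted as above background where it passed the level that 95% of an array's negative controls stayed under, a log2 signal of 5.17 to 5.74 on the 20 arrays. Defining markers of neurons (10 of 10), astrocytes (8 of 8) and oligodendrocytes (7 of 7 measured) were above background on all 20 arrays, while the 7 measured neutrophil and monocyte markers and the 2 measured red cell markers were above it on 0 arrays. Among microglial markers 3 of 7 measured were above it on all 20 arrays, and among endothelial markers 4 of 8, with 1 on none. The medians, sign counts and summed signals given for microglial and endothelial markers therefore include signals under background. Of the markers of any of the 7 cell types, 0 passed the test in any comparison.

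The 9 genes split into a readily measured and a barely measured set. The protective genes Bcl2, Bcl2l1 and Mcl1 were above background on 20 of 20 arrays. The effector Bak1 lay at the edge, above background on 14 of 20 arrays: 7 of 7 MCAO IP, 4 of 7 MCAO CL, 2 of 3 sham IP and 1 of 3 sham CL. The group means of Bak1 were 5.67, 5.58, 5.60 and 5.63 in the same order. The background level behind these counts ran from 5.23 to 5.63 on MCAO IP and from 5.17 to 5.74 on MCAO CL arrays. On sham IP arrays it ran from 5.45 to 5.71, and on sham CL arrays from 5.53 to 5.66. The counts therefore do not show a higher Bak1 level in MCAO IP. The 5 BH3-only genes Bbc3, Pmaip1, Bcl2l11, Hrk and Bid were above background on 0 of 20 arrays. For these 5 genes a signal gives only an upper bound on the level, so their signals and the outcome of the test are given, and no fitted difference or fold.

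**Figure D1:**
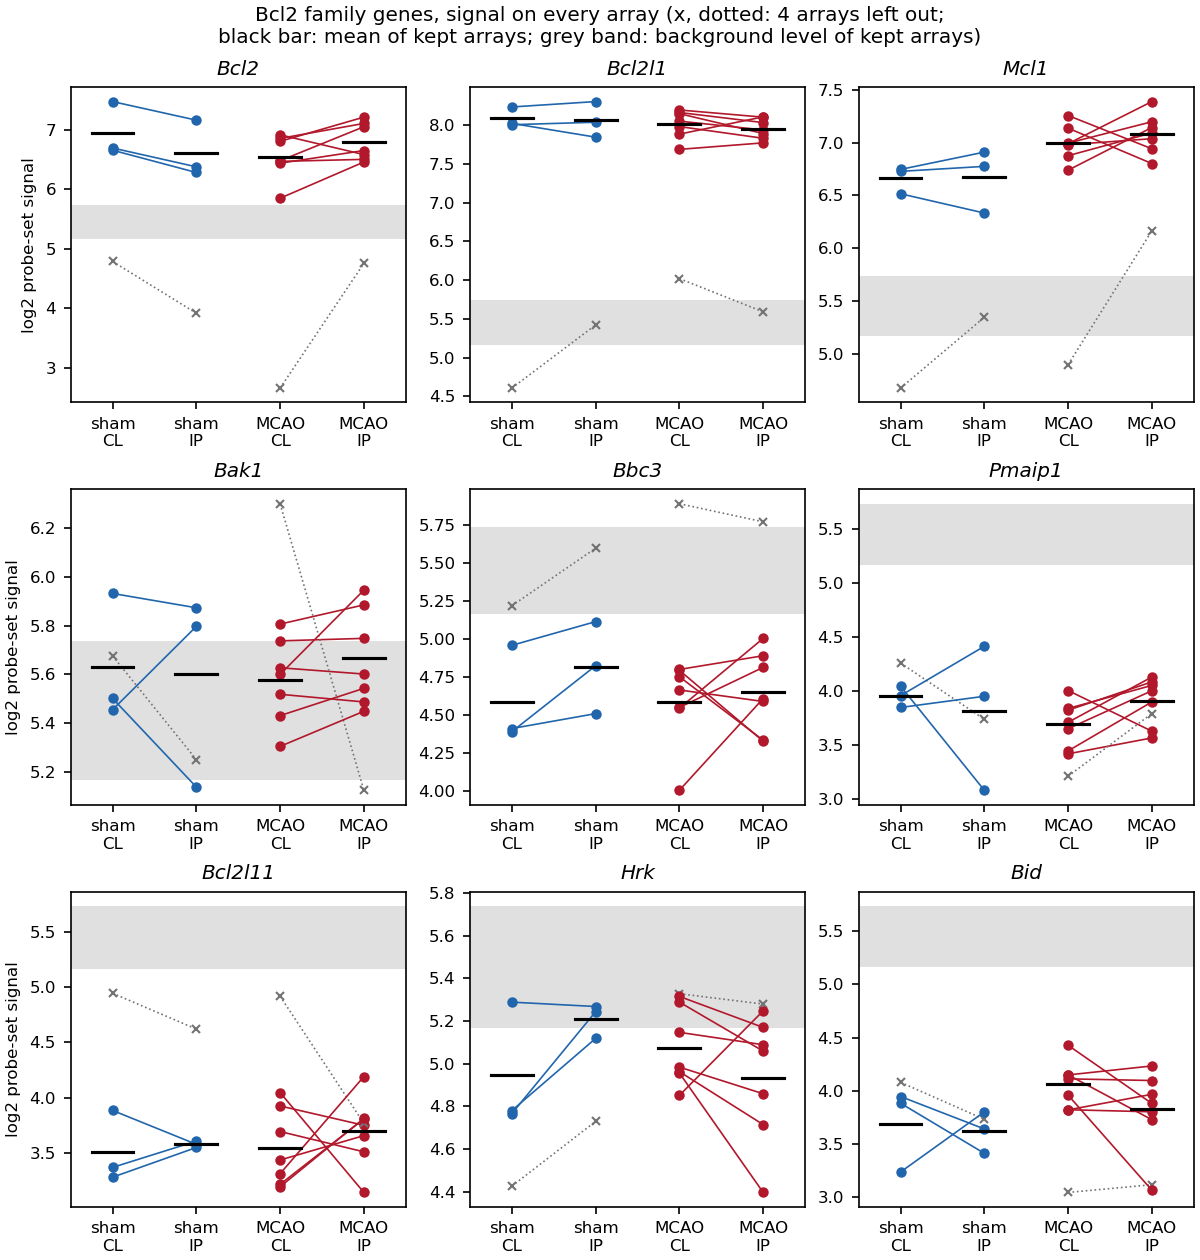
Log2 probe-set signal of the 9 measured genes (y axis) in the 4 groups (x axis), with the arrays of a mouse joined by a line, kept arrays as circles, the 4 arrays left out as crosses on dotted lines, group means as black bars and the background level of the 20 kept arrays as a grey band. Bcl2, Bcl2l1 and Mcl1 lie above the band on all 20 kept arrays, Bak1 lies in it or close to its edges, and Bbc3, Pmaip1, Bcl2l11 and Bid lie below it, while Hrk reaches its lower part without passing the background of its own array.

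Bcl2, the founding protective gene, had log2 signals of 5.85, 6.48 and 6.91 (lowest, median, highest) in the CL hemispheres of MCAO mice and of 6.46, 6.65 and 7.21 in their IP hemispheres. In the sham mice the signals were 7.47, 6.69 and 6.65 in CL and 7.16, 6.37 and 6.28 in IP, for mice 2, 3 and 4. The 4 groups overlapped, and most of the spread lay between mice. Within mice, the IP minus CL difference of Bcl2 was -0.33, 0.41, 0.61, 0.21, 0.25, 0.57 and 0.03 in MCAO mice 1, 2, 4, 5, 6, 7 and 8. In the sham mice 2, 3 and 4 it was -0.31, -0.32 and -0.37. The IP hemisphere was thus the higher one in 6 of 7 MCAO mice and the lower one in 3 of 3 sham mice, and MCAO mouse 1 lay among the sham values.

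In the MCAO mice the mean Bcl2 side difference was 0.25 ± 0.11 on the log2 scale (SE, n = 7; 95% interval 0.02 to 0.48), a 1.19-fold higher signal on the occluded side, with an unadjusted p of 0.0369 and an adjusted p of 0.667 in limma with mouse as a block. Bcl2 therefore did not pass the threshold of 0.05 adjusted over all 22206 probe sets, and 8.55% of all tested probe sets had a side difference at least as large. In a whole hemisphere, fewer cells of a type and less RNA per cell cannot be told apart, for this gene and for all that follow. In the sham mice the Bcl2 side difference was -0.33 ± 0.16 (SE, n = 3; 95% interval -0.69 to 0.02; limma adjusted p = 0.942). The difference between these side differences was 0.58 ± 0.20 (95% interval 0.16 to 1.01), with an unadjusted p of 0.0108 and a limma adjusted p of 0.691. With all 24 arrays the side difference of Bcl2 was 0.48 ± 0.19 in MCAO mice (limma adjusted p = 0.940), -0.47 ± 0.28 in sham mice, and the interaction 0.95 ± 0.34 (limma adjusted p = 0.891), with MCAO mouse 3 at a side difference of 2.09 and sham mouse 1 at -0.87, on arrays where Bcl2 was not above background.

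Between mice, Bcl2 in the IP hemisphere was 0.19 ± 0.22 higher after MCAO than after sham (limma adjusted p = 0.893), and in the CL hemisphere the difference was -0.40 ± 0.23 (unadjusted p = 0.105, limma). On all 24 arrays these values were 0.60 ± 0.57 in IP and -0.34 ± 0.75 in CL. Sham mouse 2, the highest of the sham mice on both sides, decided which side differed more: without it the difference was 0.46 in IP (limma adjusted p = 0.662) and -0.13 in CL. Leaving out any 1 mouse gave 0.025 to 0.46 in IP and -0.54 to -0.13 in CL, with 0 past the test. Oligodendrocyte markers had the same signs: in sham mice 7 of 7 had a negative side difference (median -0.16), and in the interaction 7 of 7 were positive (median 0.19), with 0 past the test. Between the hemispheres of MCAO mice their median was 0.035 (6 of 7 positive), against 0.25 for Bcl2. The signs were not particular to these markers: 4 of 4 measured genes of MCL1 turnover were negative in sham mice and positive in the interaction. Microglial markers went the other way, with 6 of 7 positive in sham mice and 5 of 7 negative in the interaction. For the oligodendrocyte markers the levels were as follows. Their summed linear signal ran from 3634 to 5122 in MCAO CL, from 4178 to 4974 in MCAO IP, from 4343 to 4938 in sham CL and from 4116 to 4331 in sham IP. The part of oligodendrocyte content in the Bcl2 values was not tested.

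**Figure D2:**
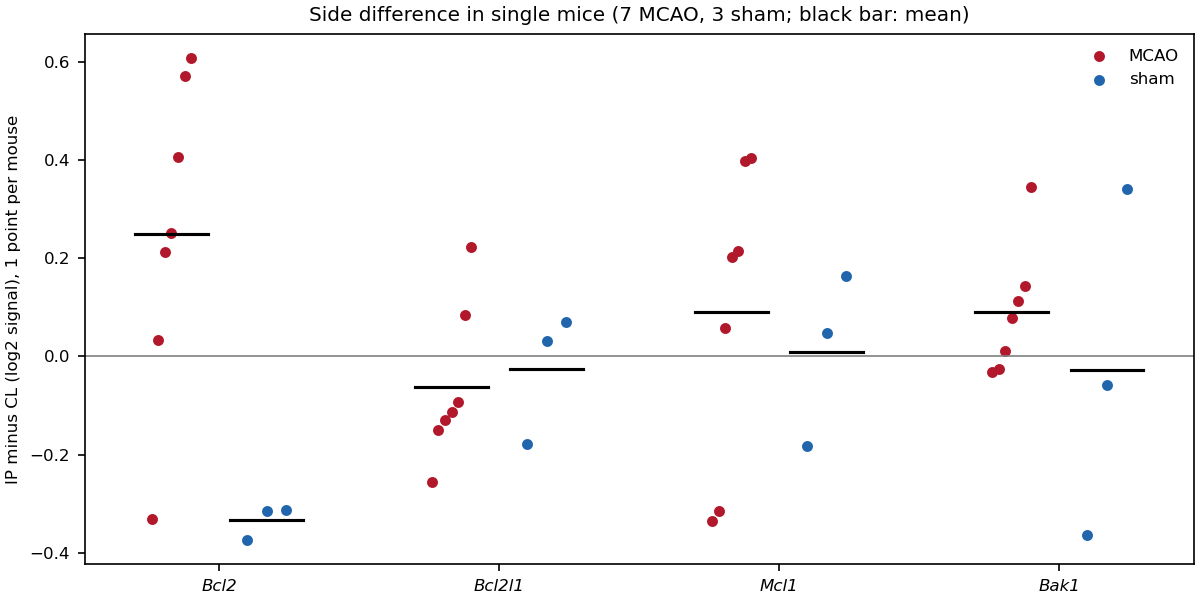
IP minus CL difference in log2 signal (y axis) of the 4 genes above background on any array (x axis) in single mice, with 7 MCAO mice in red, 3 sham mice in blue and group means as black bars. For Bcl2, 6 of 7 MCAO mice lie above 0 and 3 of 3 sham mice lie near -0.33, while the side differences of Bcl2l1, Mcl1 and Bak1 overlap between MCAO and sham mice.

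Across the 20 arrays, the genes whose signal followed that of Bcl2 most closely were Tlcd3a (Pearson r = 0.84, Spearman rho = 0.81), Grasp (0.83 and 0.78), Sf3a2 (0.82 and 0.81), Bin2 (0.82 and 0.76) and Laptm5 (0.82 and 0.77). These are descriptions over arrays that share mice, with 2 arrays per mouse, and Bin2 was above background on 0 of 20 arrays. Among the other 8 family genes the correlation with Bcl2 ran from -0.33 (Pmaip1) to 0.45 (Bak1), so no family gene was among the closest.

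Bcl2l1, which encodes the protective BCL-xL, had the smallest standard error of the 9 genes between the hemispheres of MCAO mice. Its log2 signals ran from 7.69 over a median of 8.05 to 8.20 in MCAO CL and from 7.77 over 7.94 to 8.11 in MCAO IP. In sham mice they ran from 8.01 over 8.02 to 8.23 in CL and from 7.84 over 8.04 to 8.30 in IP. All 4 groups overlapped, and the IP hemisphere was the lower one in 5 of 7 MCAO mice. The side difference was -0.06 ± 0.08 in MCAO mice (SE, n = 7; 95% interval -0.24 to 0.11; limma adjusted p = 0.940), so a side difference of Bcl2l1 beyond these bounds lies outside the 95% interval. Against sham, the difference was -0.11 ± 0.13 in IP and -0.07 ± 0.14 in CL. On all 24 arrays those values were 0.26 ± 0.57 and 0.55 ± 0.64, of opposite sign and with larger standard errors, the side difference in MCAO mice was -0.11 ± 0.13, and 0 of these passed the test.

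Mcl1, a protective gene with a short-lived product, was higher in both hemispheres of MCAO mice than in those of sham mice, without passing the test. Its log2 signals in MCAO mice 1, 2, 4, 5, 6, 7 and 8 were 7.26, 6.99, 6.74, 7.14, 6.99, 6.98 and 6.88 in CL. The same mice had 6.94, 7.39, 7.14, 6.80, 7.20, 7.04 and 7.09 in IP. In sham mice 2, 3 and 4 the signals were 6.52, 6.75 and 6.73 in CL and 6.33, 6.91 and 6.77 in IP. On the CL side 6 of 7 MCAO mice lay above all 3 sham mice, the lowest MCAO value being 6.74 and the highest sham value 6.75, and on the IP side the groups overlapped in 1 MCAO mouse, mouse 5.

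In the IP hemisphere Mcl1 was 0.41 ± 0.15 higher after MCAO (SE, n = 7 and 3; 95% interval 0.08 to 0.74), a 1.33-fold difference with an unadjusted p of 0.0183 and a limma adjusted p of 0.575. In the CL hemisphere it was 0.33 ± 0.13 higher (95% interval 0.05 to 0.62), 1.26-fold, with an unadjusted p of 0.0251 and a limma adjusted p of 1.00. Between the hemispheres of MCAO mice Mcl1 differed by 0.09 ± 0.11 (95% interval -0.14 to 0.32; limma adjusted p = 0.930), higher on the IP side in 5 of 7 mice, and in sham mice by 0.01 ± 0.16. The interaction was 0.08 ± 0.19 (limma adjusted p = 0.986), so the higher Mcl1 signal was not shown to differ between the occluded and the opposite side. With all 24 arrays the difference was 0.63 ± 0.31 in IP (limma adjusted p = 0.968) and 0.57 ± 0.49 in CL (limma adjusted p = 0.997), and the side difference 0.24 ± 0.16 in MCAO mice and 0.17 ± 0.23 in sham mice.

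Endothelial, microglial and astrocyte markers had, as Mcl1 did, positive median differences in both hemispheres. This was not particular to these cell types. The median was 0.14 in IP and 0.066 in CL for genes upstream of the BH3-only genes. For genes downstream of the family it was 0.086 and 0.042, and for other BCL2 relatives 0.063 and 0.033. Over all probe sets it was 0.0082 and 0.010. Oligodendrocyte markers and MCL1 turnover genes had a positive median only in IP, and red cell markers in neither. The median difference of the endothelial markers between MCAO and sham was 0.15 in both hemispheres, positive for 7 of 8 markers in IP and for 8 of 8 in CL, with 0 past the test. The tight junction gene Cldn5 differed most, by 0.89 in IP and 0.68 in CL. The summed linear signal of the 8 markers ran from 854 to 1017 in MCAO IP against 819 to 881 in sham IP, and from 845 to 1171 in MCAO CL against 777 to 802 in sham CL. Microglial markers had a median difference of 0.11 in IP (5 of 7 positive) and 0.15 in CL (7 of 7), with summed signals of 598 to 770 in MCAO IP against 548 to 668 in sham IP, and of 540 to 783 in MCAO CL against 510 to 576 in sham CL. Astrocyte markers had a median difference of 0.098 in IP (8 of 8 positive) and 0.13 in CL (6 of 8), with summed signals of 4622 to 5369 against 4329 to 5013 in IP and of 4397 to 5394 against 4292 to 4925 in CL. Oligodendrocyte markers had a median difference of 0.18 in IP (6 of 7 positive) and of -0.09 in CL (2 of 7). For neuron markers it was 0.035 in IP (8 of 10 positive) and 0.005 in CL (5 of 10). The part of any of these cell types in the Mcl1 values was not tested. Of 5 genes known to act on the turnover of the MCL1 protein, 4 were measured and 0 passed the test. Between MCAO and sham their median difference was 0.15 in IP (4 of 4 positive, the highest 0.49) and -0.056 in CL (1 of 4 positive). The ubiquitin ligase Fbxw7 had a side difference of 0.18 ± 0.11 in MCAO mice (limma adjusted p = 0.821), and Btrc one of 0.04 ± 0.07 (limma adjusted p = 0.966).

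Bak1, the measured effector, had log2 signals of 5.31, 5.60 and 5.81 (lowest, median, highest) in MCAO CL and of 5.45, 5.60 and 5.95 in MCAO IP. The sham signals were 5.46, 5.50 and 5.93 in CL and 5.14, 5.80 and 5.87 in IP. The groups overlapped throughout. The side difference was 0.09 ± 0.09 in MCAO mice (95% interval -0.11 to 0.29; limma adjusted p = 0.923) and -0.03 ± 0.14 in sham mice. The MCAO value from all 24 arrays was -0.07 ± 0.15, of the other sign, and the sham value -0.13 ± 0.22. Against sham, Bak1 differed by 0.06 ± 0.17 in IP and by -0.05 ± 0.15 in CL, and on all 24 arrays by 0.08 ± 0.23 and, with the other sign, by 0.02 ± 0.23.

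The upstream region of 3 family genes is shown because these genes are textbook targets of stress-responsive transcription factors, 2 of which are described with their values after the BH3-only genes. Each run is the 250 bases before the outermost RefSeq transcription start of the gene, read 5′ to 3′ on the gene's strand, from assembly GRCm38.p6, at chr3:95658471-95658720 for Mcl1, chr7:16309333-16309582 for Bbc3 and chr2:128125788-128126037 for Bcl2l11, all on the plus strand. Capitals mark a match to one of 4 motifs, searched on both strands.
Mcl1: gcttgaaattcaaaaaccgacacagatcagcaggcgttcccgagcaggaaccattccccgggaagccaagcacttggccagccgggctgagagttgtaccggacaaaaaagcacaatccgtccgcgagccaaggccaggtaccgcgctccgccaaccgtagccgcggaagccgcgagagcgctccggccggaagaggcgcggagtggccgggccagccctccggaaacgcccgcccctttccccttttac
Bbc3: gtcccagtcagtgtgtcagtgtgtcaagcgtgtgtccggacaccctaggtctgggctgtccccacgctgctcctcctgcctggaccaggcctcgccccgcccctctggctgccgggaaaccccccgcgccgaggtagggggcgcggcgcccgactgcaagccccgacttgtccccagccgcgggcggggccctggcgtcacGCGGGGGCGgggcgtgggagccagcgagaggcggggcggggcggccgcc
Bcl2l11: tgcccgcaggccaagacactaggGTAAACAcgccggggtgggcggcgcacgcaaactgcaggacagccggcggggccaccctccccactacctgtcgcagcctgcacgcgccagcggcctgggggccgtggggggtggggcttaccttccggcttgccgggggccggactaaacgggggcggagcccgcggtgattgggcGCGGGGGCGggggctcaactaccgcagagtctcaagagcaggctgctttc
The AP-1 motif (TGANTCA), bound by JUN, and the CRE motif (TGACGTCA), bound by ATF and CREB factors, were in 0 of the 9 family promoters on file, which include that of Bax but not that of Pmaip1. Over all 27025 genes with a promoter on file, 6.85% held the first and 1.6% the second in the same window. The EGR motif (GCGNGGGCG) was present in Bbc3, with its first base at position -49 from the start, and in Bcl2l11 at -50, against 4.63% of all promoters. Apart from N this motif is all G and C, and the windows of Bbc3 and Bcl2l11 were 76.4% and 72.0% G or C. The share over all promoters is therefore not a like comparison. The factors Egr1, Foxo1, Foxo3 and Foxo4 were measured, and none of them passed the test in any comparison. No values of EGR or FOXO factors are given here. The FOXO motif (GTAAACA) was present in Bcl2l11 at -227, against 3.06% of all promoters. In these windows no motif overlapped another. A match is a description of the letters and no evidence of binding, and the lack of one says only that the letters are not in this window.

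The 5 BH3-only genes gave signals below the background of every array, in all 4 groups. Bbc3, whose product PUMA binds all protective members, had log2 signals of 4.01, 4.67 and 4.80 (lowest, median, highest) in MCAO CL and of 4.33, 4.61 and 5.01 in MCAO IP. The sham signals of Bbc3 were 4.39, 4.41 and 4.96 in CL and 4.51, 4.83 and 5.11 in IP. The Bbc3 signal was higher on the IP side in 4 of 7 MCAO mice (limma adjusted p = 0.966) and in 3 of 3 sham mice (limma adjusted p = 0.994). The groups of Bbc3 overlapped in every comparison.

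Pmaip1, which encodes NOXA, a BH3-only protein that binds MCL1, had log2 signals of 3.42, 3.71 and 4.01 in MCAO CL and of 3.57, 4.00 and 4.13 in MCAO IP. The sham signals were 3.85, 3.96 and 4.05 in CL and 3.08, 3.95 and 4.42 in IP. The Pmaip1 signal was higher on the IP side in 6 of 7 MCAO mice, all but mouse 5 (limma adjusted p = 0.847), and in 2 of 3 sham mice (limma adjusted p = 0.999). The groups of Pmaip1 overlapped in every comparison.

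Bcl2l11, which encodes BIM, had log2 signals of 3.19, 3.43 and 4.05 in MCAO CL and of 3.14, 3.75 and 4.19 in MCAO IP. In sham mice the signals were 3.28, 3.37 and 3.88 in CL and 3.55, 3.58 and 3.60 in IP. The Bcl2l11 signal was higher on the IP side in 4 of 7 MCAO mice (limma adjusted p = 0.930) and in 2 of 3 sham mice. The 3 sham IP signals lay within the range of the MCAO IP signals.

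Hrk, a BH3-only gene known for its expression in dying neurons, had log2 signals of 4.85, 4.98 and 5.31 in MCAO CL and of 4.40, 5.06 and 5.25 in MCAO IP. The sham signals were 4.77, 4.78 and 5.29 in CL and 5.12, 5.24 and 5.27 in IP. The Hrk signal was lower on the IP side in 6 of 7 MCAO mice (limma adjusted p = 0.874) and higher on it in 2 of 3 sham mice (limma adjusted p = 0.949). The interaction did not pass the test (limma adjusted p = 0.842), and the groups of Hrk overlapped.

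Bid, whose product is cut by caspase-8 into its active form, had log2 signals of 3.82, 4.11 and 4.43 in MCAO CL and of 3.07, 3.88 and 4.23 in MCAO IP. The sham signals were 3.24, 3.88 and 3.95 in CL and 3.41, 3.64 and 3.80 in IP. The Bid signal was lower on the IP side in 5 of 7 MCAO mice (limma adjusted p = 0.820) and in 2 of 3 sham mice (limma adjusted p = 0.999). Between MCAO and sham the groups of Bid overlapped in both hemispheres (limma adjusted p = 0.873 in IP and 1.00 in CL).

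Counted over the 9 measured genes, 0 passed the test between the hemispheres of MCAO mice, where 0.135% of all probe sets did (28 higher and 2 lower on the IP side). At an unadjusted p under 0.05, 1 of 9 genes (Bcl2) stood beside 7.1% of all probe sets. In sham mice 0 of 9 passed, as did 0% of all probe sets, and 0 of 9 had an unadjusted p under 0.05, beside 5.49% of all. For the interaction 0 of 9 passed, beside 0% of all, and 1 of 9 (Bcl2) had an unadjusted p under 0.05, beside 5.91%. Between the IP hemispheres of MCAO and sham mice 0 of 9 passed, beside 0.149% of all (28 higher and 5 lower after MCAO), and 1 of 9 (Mcl1) had an unadjusted p under 0.05, beside 7.48%. Between the CL hemispheres 0 of 9 passed, beside 0% of all, and 1 of 9 (Mcl1) had an unadjusted p under 0.05, beside 4.59%. With so few genes, 1 of 9 cannot be told from these background shares. The comparisons share arrays and are not independent of each other.

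With all 24 arrays, 0 of 9 genes passed in any of the 5 comparisons. The share of all probe sets was then 0.0856% between the hemispheres of MCAO mice and 0.0045% between IP hemispheres, and 0% in the other 3 comparisons. The median log2 signal difference of the 9 genes on 20 arrays, 5 of them below background, was 0.09 between the hemispheres of MCAO mice, with 6 positive and 3 negative, and -0.025 in sham mice, with 4 positive and 5 negative. It was 0.08 for the interaction (5 and 4), 0.09 between IP hemispheres (6 and 3) and 0.00048 between CL hemispheres (5 and 4). The median of all probe sets was -0.0048, -0.0049, 0.00033, 0.0082 and 0.010 in the same order. With all 24 arrays the median of the 9 genes was -0.013, -0.031, 0.018, 0.090 and 0.024 in that order. Its sign between the hemispheres of MCAO mice thus depended on the arrays used. As 5 of the 9 genes were below background, these medians and sign counts do not describe the transcript levels of the family.

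The precision of these comparisons sets what could have been seen. The 95% intervals of Bcl2, Bcl2l1, Mcl1 and Bak1 reached 0.17 to 0.23 to each side between the hemispheres of MCAO mice, and 0.29 to 0.46 to each side between IP hemispheres. The smallest difference that passed the test among all probe sets was 0.47 in the first comparison and 0.80 in the second. A difference of the size of that of Bcl2 or Mcl1 was therefore under the smallest that was called with this number of mice.

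**Figure D3:**
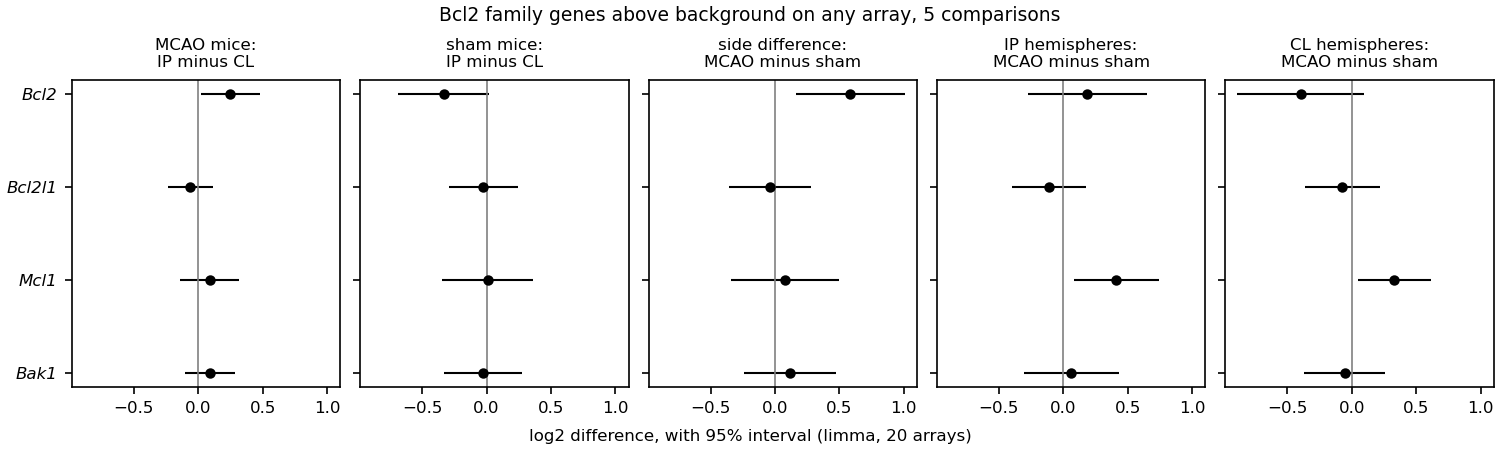
Log2 difference of the 4 genes above background on any array (x axis, with its 95% interval from limma on 20 arrays) in the 5 comparisons, 1 per panel. The intervals exclude 0 for Bcl2 between the hemispheres of MCAO mice and in the interaction, and for Mcl1 in both comparisons of MCAO with sham, and none of these passed after adjustment over all probe sets.

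The remaining BCL2 relatives gave a like picture. All 16 listed relatives were measured, 3 of them were above background on all 20 arrays and 10 on none, and 0 passed the test in any comparison. The one with the smallest p between the hemispheres of MCAO mice was Bcl2a1d, a protective gene of blood and immune cells (limma adjusted p = 0.111), with a higher IP signal in 7 of 7 mice. Bcl2a1d was above background on 0 arrays, and it has near-identical copies whose signals an array may not separate. Bcl2l14 followed, with a lower IP signal in 6 of 7 mice (limma adjusted p = 0.576), also above background on 0 arrays.

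Downstream of the family, 20 of 22 genes of the apoptosome, the caspases, other mitochondrial death proteins and their inhibitors were measured, and 0 passed the test in any comparison. Casp6, an executioner caspase, had the smallest p between the hemispheres of MCAO mice, with a higher IP signal in 2 of 7 (limma adjusted p = 0.822), followed by Apaf1, the scaffold of the apoptosome, with a higher one in 5 of 7 (limma adjusted p = 0.826). Both were above background on 0 arrays.

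Upstream of the BH3-only genes, 20 of 21 listed transcription factors and kinases were measured. Of these, 2 rose between the hemispheres of MCAO mice, where 0.135% of all probe sets passed. Between the IP hemispheres of MCAO and sham mice 3 rose, beside 0.149% of all probe sets. None fell, and 0 passed in the other 3 comparisons. The list was chosen with earlier results of these data known, so its called genes are no independent evidence of a contrast with the family. Trp53 was not analysed here. Jun, an AP-1 factor known to act upstream of Hrk and Bcl2l11 in neurons, had log2 signals of 6.80, 7.10 and 7.56 (lowest, median, highest) in MCAO CL, of 7.73, 7.90 and 8.18 in MCAO IP and of 6.53, 6.61 and 6.64 in sham IP. The MCAO IP signals of Jun lay above those of the other 3 groups without overlap. Jun rose by 0.70 ± 0.09 between the hemispheres of MCAO mice (1.63-fold; limma adjusted p = 0.00435; 7 of 7 mice) and by 1.32 ± 0.12 against sham IP (2.50-fold; limma adjusted p = 8.69e-05). Atf3, a stress-induced factor, was above background on 7 of 7 MCAO IP arrays and on 0 of the others. It rose at least 1.94-fold between the hemispheres of MCAO mice (limma adjusted p = 0.00435; 7 of 7 mice) and at least 1.83-fold against sham IP (limma adjusted p = 0.00267), each dim array being set to its background level.

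Cebpb passed only against sham IP (limma adjusted p = 0.0255), with 1 of 7 MCAO IP arrays and 0 of 3 sham IP arrays above background, so no fold is given. With all 24 arrays Jun and Atf3 still passed between the hemispheres (limma adjusted p = 0.0129 and 0.00622), and none of the 3 genes passed against sham IP, where the limma adjusted p-values of Jun, Atf3 and Cebpb were 0.968, 0.941 and 0.968. In the same hemispheres, Hrk and Bcl2l11, known targets of Jun, neither passed the test nor were above background. The difference between the response of Jun or Atf3 and that of the family genes was not itself tested.

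**Figure D4:**
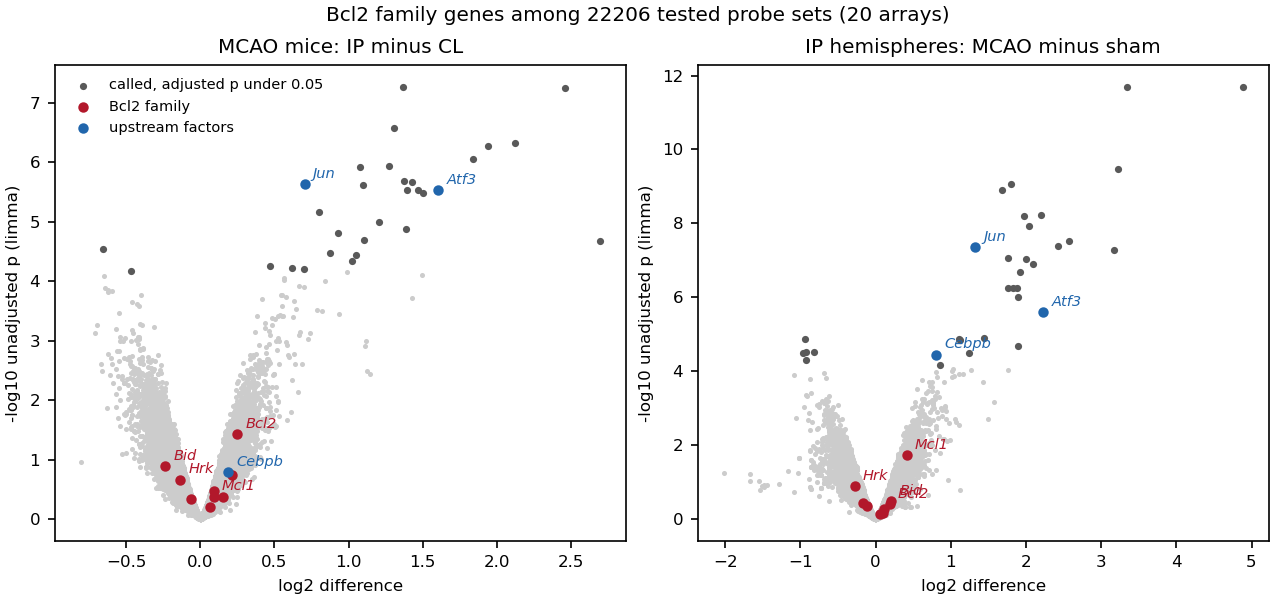
Unadjusted p (y axis, as -log10) against log2 difference (x axis) of all 22206 tested probe sets between the hemispheres of MCAO mice (left) and between IP hemispheres of MCAO and sham mice (right), limma on 20 arrays. The called probe sets (dark grey, 30 on the left and 33 on the right) hold Jun and Atf3 on both sides and Cebpb on the right, and the 9 Bcl2 family genes (red, 5 of them below background on all 20 arrays) lie within the cloud of probe sets that were not called.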

How the data were processed

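RNA of 24 hemispheres of 12 mice was measured on Affymetrix arrays. The authors deposited log2 signals per probe set; the submitters' processing notes name Affymetrix Expression Console. The log2 scale was inferred from the values, and version, normalization and annotation build were not given in the sources used here, so array coordinates are not used. The family genes and all gene lists were chosen with earlier results of these data known.

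Of 29129 rows, 6923 array controls were left out of tests, and 22206 were tested with no filter on signal. One gene symbol was given for 19572 and none for 2634. All 19572 Entrez identifiers were found in RefSeq (GRCm38.p6), with 0 symbols differing. For each gene the probe set of highest mean was used. Identical values were found in 0 pairs of arrays.

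Both arrays of a mouse were left out where either had a median correlation under 0.9 with the others, a rule set with earlier results known. Within-mouse comparisons and the interaction used limma 3.58.1 (R 4.3.3, lmFit and eBayes) with a fixed block for the mouse, because its hemispheres come from 1 animal. Between the hemispheres of a mouse, deviations from the group means correlated at 0.11 to 0.31 over 10 mice, against a median of -0.04 between different mice. Comparisons between mice were fitted on 1 side at a time without a block. The Benjamini-Hochberg adjustment ran over all 22206 tested probe sets, with a threshold of 0.05, and errors are standard errors. The number of mice, not a read depth, limits the precision. The fit was tested on simulated data.

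All family genes were named. From each other list, its called genes were named (at most 4 by size), or else the 2 with the smallest p between the hemispheres of MCAO mice, and for likeness the 5 genes closest to Bcl2. Cldn5, Hrk and Bcl2l11 as targets of Jun, and the motifs were picked outside that rule. Alternatives were all 24 arrays, other blocks, scalings, variance models and filters, and leaving out each mouse. Promoters came from RefSeq (GRCm38.p6), for 9 of the 10 genes. Figures used matplotlib 3.10.9 in Python 3.11.15.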

Additional observations from a re-analysis of the deposited data

Results flagged for a closer look

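In 2 of 27 sets of values from 7 MCAO mice (signals in each hemisphere and side differences of the 9 genes), 1 mouse lay far from the others; chance flags about 1 in 20. The Bbc3 log2 signal in the CL hemisphere of MCAO mouse 8 was 4.01, where the next lowest was 4.55 and the highest 4.80. The Pmaip1 side difference of MCAO mouse 5 was -0.38, where the next lowest was 0.15 and the highest 0.45. Both genes were below background on all 20 arrays.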

How the results depend on the processing

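The count of family genes called was 0 in each of the 5 comparisons under each of the 20 alternatives that could be run for it. Of 835 alternative values of single genes, 0 had an adjusted p under 0.05 (the smallest was 0.382, for Bcl2 between the hemispheres without MCAO mouse 1), and 48 had the other sign, 33 of them among the 450 that left out 1 mouse. Without the mouse as a block, 0 genes were called in the within-mouse comparisons, and the Bcl2 side difference of 0.25 in MCAO mice had a standard error of 0.18 (limma adjusted p = 0.999), against 0.16 (limma adjusted p = 0.835) with mouse as a random block. Over all alternatives that value ran from 0.19 to 0.48, the Bcl2 interaction from 0.52 to 0.95 and the Mcl1 difference between IP hemispheres from 0.24 to 0.63, and leaving out 1 mouse moved the last to between 0.24 and 0.53, the lowest being without sham mouse 2. A filter on dim probe sets left 5 of the 9 genes. Fitting only the mice of 1 surgery group was possible only within that group, and averaging the probe sets of a gene left these single-probe-set values as they were. A change of sign counts as a reversal only where the 95% interval excluded 0. Low signal over background limits the 5 BH3-only genes, and 3 sham mice limit each comparison with sham.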
